A study of Arabidopsis thaliana with 12 samples.

Results

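The 8 genes RD29A (AT5G52310), RD29B (AT5G52300), COR15A (AT2G42540), COR15B (AT2G42530), KIN1 (AT5G15960), KIN2 (AT5G15970), LEA7 (AT1G52690) and LEA14 (AT1G01470), which are widely used as readouts of cold and abscisic acid (ABA) responses, were followed in rosette leaves of Arabidopsis thaliana Col-0 plants. They were taken by locus number from the 32678 genes of the count table, and all 8 were among the 18291 genes tested. Plants 4 to 5 weeks old (28 to 35 days) were sprayed with 500 µM ABA or with a mock solution, both in 0.5% ethanol with Tween-20, and leaves were harvested after 48 h. The 4 groups were ABA-treated L07, mock-treated L07, ABA-treated L12 and mock-treated L12, where L07 is the older true leaf 7 and L12 the younger true leaf 12, both labelled as fully expanded. Each group had 3 libraries of polyadenylated RNA, from an experiment that was repeated 3 times. Every plant was wild type, so the mock groups differed from the ABA groups only in the hormone, and the leaf groups were of 1 genotype.

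The RD29, COR15, KIN and LEA genes encode small or hydrophilic proteins that accumulate when plant cells lose water, as in drought, salt stress, freezing and seed drying. ABA, the hormone made under water shortage, acts on such genes through bZIP factors (ABFs, ABI5) that bind a promoter element called ABRE, and cold acts on many of the same genes through CBF/DREB factors that bind the DRE element. COR15A and COR15B are chloroplast proteins that protect membranes during freezing, and LEA7 and LEA14 belong to the late embryogenesis abundant (LEA) proteins, a group named for its build-up in maturing seeds.

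Of the 8 genes, 6 lie in tandem pairs. In the RefSeq annotation of TAIR10.1, RD29B (chr5:21237021-21239531, plus strand) is followed by RD29A (chr5:21240717-21243644, plus strand) after 1185 bases, and KIN1 (chr5:5209717-5210826, plus strand) by KIN2 (chr5:5211719-5212743, plus strand) after 892 bases. COR15A (chr2:17710441-17712330, minus strand) and COR15B (chr2:17708593-17710433, minus strand) are 7 bases apart. LEA7 (chr1:19619724-19621534, plus strand) and LEA14 (chr1:171525-172948, minus strand) stand alone. The coding sequences of RD29A and RD29B were 56.0% identical, those of COR15A and COR15B 82.6%, and those of KIN1 and KIN2 95%, with 191 of 201 aligned bases shared. The KIN coding sequences are shown because the counts below separate these neighbours, with the 10 bases that differ in capitals.
KIN1: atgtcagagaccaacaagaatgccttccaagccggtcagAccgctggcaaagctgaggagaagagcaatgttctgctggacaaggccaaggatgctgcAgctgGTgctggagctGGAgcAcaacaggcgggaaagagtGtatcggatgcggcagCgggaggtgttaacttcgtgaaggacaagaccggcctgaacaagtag
KIN2: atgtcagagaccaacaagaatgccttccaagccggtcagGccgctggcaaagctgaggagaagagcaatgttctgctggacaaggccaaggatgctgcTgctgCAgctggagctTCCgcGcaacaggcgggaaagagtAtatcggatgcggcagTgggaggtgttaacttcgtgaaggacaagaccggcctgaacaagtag
Reads from the matching stretches could align to both genes. Multiply aligned reads were counted outside the genes, which lowers the counts of both. Of all 50-base windows of the spliced transcripts, 10 were identical in KIN1 and KIN2 (1.28% and 1.43% of their windows), against 0 in the RD29 and COR15 pairs, so most reads of at least this length could tell the KIN genes apart. The read length was not given in the sources used here, and KIN1 and KIN2 values are uncertain to that extent.

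The stretches just before the annotated gene starts of RD29B, LEA7 and COR15A held the cores of both elements. Those of the other genes held only the ABRE core or only the DRE core. The windows of RD29A, RD29B, LEA7 and COR15A are shown, since they precede 3 genes that rose with ABA in L12 and 1 that did not pass the test. Each is 300 bases long, overlaps no annotated gene, is read from the RefSeq genome of TAIR10.1 in the direction of the gene, and has in capitals each match on either strand to the ABRE core ACGTG or the DRE core CCGAC.
RD29A, chr5:21240417-21240716, plus strand: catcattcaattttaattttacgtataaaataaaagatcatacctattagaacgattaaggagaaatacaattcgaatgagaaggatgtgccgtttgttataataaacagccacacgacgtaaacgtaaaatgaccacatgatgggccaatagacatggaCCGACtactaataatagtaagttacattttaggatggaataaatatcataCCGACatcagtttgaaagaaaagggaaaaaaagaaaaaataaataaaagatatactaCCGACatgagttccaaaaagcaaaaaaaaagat
RD29B, chr5:21236721-21237020, plus strand: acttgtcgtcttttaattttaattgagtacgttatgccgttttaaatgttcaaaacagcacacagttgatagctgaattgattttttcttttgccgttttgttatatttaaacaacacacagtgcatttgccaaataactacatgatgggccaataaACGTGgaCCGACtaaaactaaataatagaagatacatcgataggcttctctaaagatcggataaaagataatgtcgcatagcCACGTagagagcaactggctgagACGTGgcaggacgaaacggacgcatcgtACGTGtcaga
LEA7, chr1:19619424-19619723, plus strand: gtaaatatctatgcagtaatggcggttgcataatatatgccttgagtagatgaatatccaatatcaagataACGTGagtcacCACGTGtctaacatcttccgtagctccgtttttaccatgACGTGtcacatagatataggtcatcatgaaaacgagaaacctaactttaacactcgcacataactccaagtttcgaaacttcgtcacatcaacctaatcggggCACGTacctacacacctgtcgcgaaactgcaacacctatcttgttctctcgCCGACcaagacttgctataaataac
COR15A, chr2:17712331-17712630, minus strand: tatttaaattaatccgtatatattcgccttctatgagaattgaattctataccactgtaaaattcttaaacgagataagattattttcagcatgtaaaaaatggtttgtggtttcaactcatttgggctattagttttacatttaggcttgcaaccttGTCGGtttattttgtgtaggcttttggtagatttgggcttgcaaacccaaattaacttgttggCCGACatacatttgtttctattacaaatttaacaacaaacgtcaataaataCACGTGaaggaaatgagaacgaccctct
RD29B and LEA7 each had 4 ABRE core sites and 1 DRE core site in these windows, where overlapping matches on the 2 strands count as 1 site. RD29A had 0 ABRE and 3 DRE core sites, and COR15A had 1 and 2. KIN1 and KIN2 had 1 ABRE core each and LEA14 had 2, all 3 with no DRE core, and the window of COR15B had 1 DRE core but overlaps COR15A. Of 27443 protein-coding genes, 25.6% had at least 1 ABRE core and 0.306% at least 4 in a window of this size, while 13.9% had at least 1 DRE core and 0.262% at least 3. In the 500 bases before the start codon, each of the 8 genes had at least 1 core of both kinds, against 34.9% of all genes for ABRE and 23.4% for DRE. KIN2 had 4 ABRE core sites there, as many as RD29B and LEA7, beside 0.634% of all genes with at least 4. KIN1, COR15A and LEA14 had 3 ABRE core sites each in that longer window, COR15B had 2 and RD29A had 1. These matches describe letters in a window and were not tested as binding sites.

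The libraries held between 11811137 and 21485394 counts on genes, of which the 8 genes took 0.357% to 3.07%. Levels are given as CPM, counts scaled to one common library size with TMM factors, and differences as log2 fold changes with their standard error (SE) from edgeR's quasi-likelihood test with the replicate number as a block. A gene passed the test at a Benjamini-Hochberg adjusted p below 0.01 over all 18291 genes and a log2 fold change beyond 1. Libraries of a group differed by transcript length: within each group, the deviation of a gene in replicate 3 ran against its transcript length (Spearman correlation across 18179 genes between -0.55 and -0.39, genes not being independent), so short transcripts stood high there. Trends of the opposite sign and like strength stood in replicate 1 of mock-treated L07 (0.51), replicate 1 of ABA-treated L07 (0.53) and replicate 2 of mock-treated L12 (0.57). The last of these is also the library that moved RD29B and LEA7 most in the responses of L12. There RD29B stood 2.96, LEA7 2.56 and RD29A 0.711 above the group mean on the log2 scale. A link of these deviations to this trend was not tested on its own. The part of this trend in the results was tested only through a correction for exon length and GC, given where it changed a call or a sign. KIN2 (750 bases of exons), KIN1 (829) and LEA7 (904) are short, LEA14 (1348) and both COR15 genes (1584) are longer, and RD29B (2171) and RD29A (2663) are the longest of the 8. Markers of leaf mesophyll cells were abundant in every group (summed CPM of 6 markers between 30340 and 120300), and those of seeds were near 0 (summed CPM of 8 markers at most 0.732 in any library, 5 or 6 of them at 0 in each group). In bulk leaves, a change in the number of cells of a type and a change in RNA per cell cannot be told apart.

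The 8 genes did not move as 1 group 48 h after ABA. RD29A, RD29B, KIN1 and LEA7 rose in L12, with KIN1 alone among them passing in L07, COR15B fell in both leaves, and COR15A, KIN2 and LEA14 did not pass in either leaf. In L07, 1 of the 8 genes was higher and 1 lower, beside 0.935% and 2.00% of all genes tested. In L12, 4 were higher and 1 lower, beside 1.47% and 3.08% of all genes tested. Over all genes, the median was 0.03 on the log2 scale in both leaves.

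**Figure D1:**
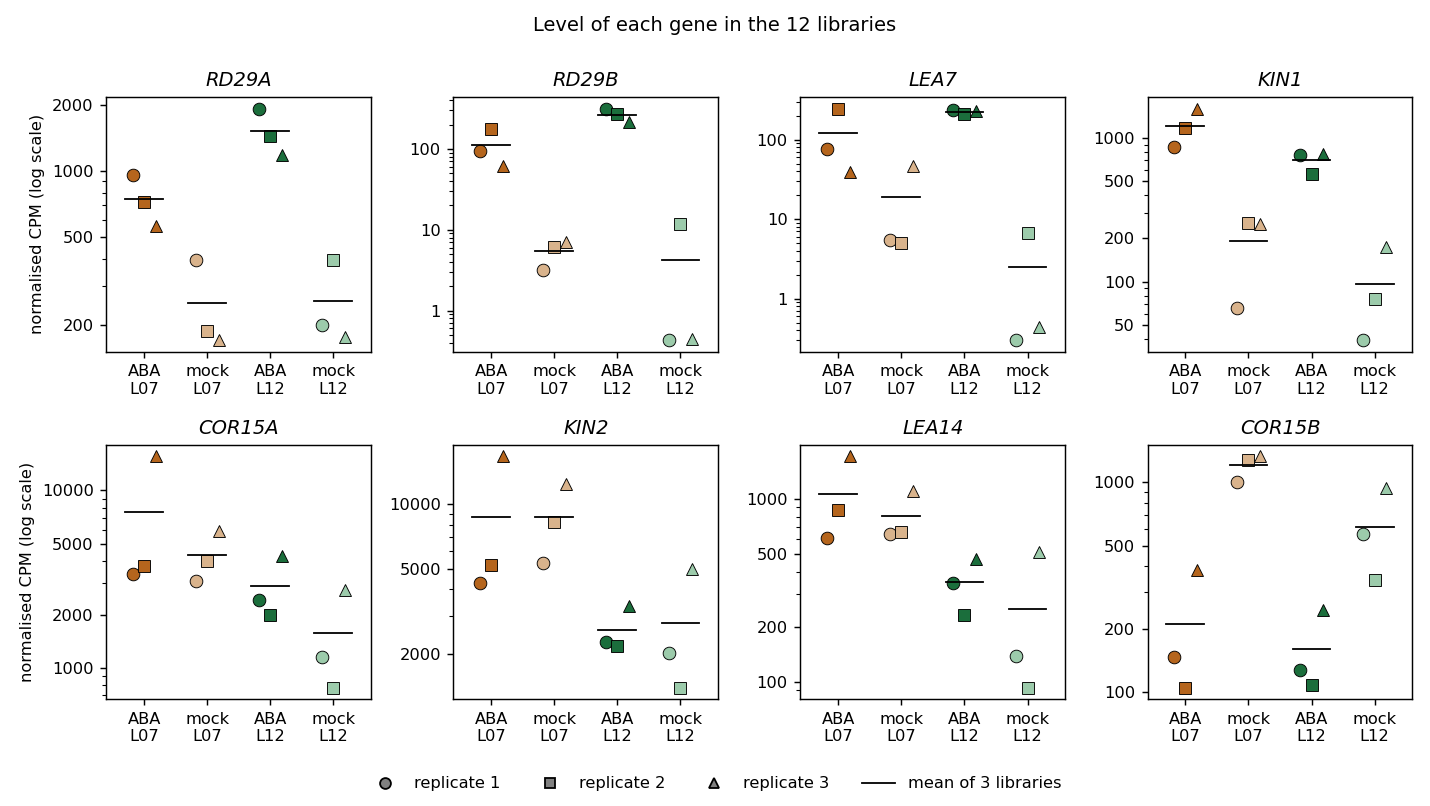
Normalised CPM on a log scale for each of the 8 genes in ABA-treated and mock-treated L07 and L12, with 1 point per library, the symbol giving the replicate and the line the mean of 3. The ABA points of RD29B and KIN1 lie above all mock points of the same leaf, those of COR15B below, and KIN2 differs more between the leaves than between the treatments.

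RD29B, the gene of the pair that depends most on ABA, had 95.3, 175 and 61.3 CPM in ABA-treated L07 (replicates 1 to 3), against 3.16, 6.05 and 7.06 CPM in mock-treated L07. In ABA-treated L12 it had 315, 268 and 217 CPM, against 0.431, 11.7 and 0.439 CPM in mock-treated L12. Treated and mock libraries did not overlap in either leaf, and replicate 2 of mock-treated L12 stood high, at 289 counts against 10 and 6 in the other two libraries of its group. The rise in L12 was 6.79 ± 0.99 on the log2 scale (SE, 110-fold, adjusted p = 0.00241, edgeR). In L07 the log2 fold change was 4.17 ± 0.86 (18.0-fold), with an adjusted p of 0.0143 that missed the threshold. Without replicate 2 of mock-treated L12, the log2 fold changes were 9.08 in L12 (adjusted p = 9.68e-05) and 4.27 in L07 (adjusted p = 0.000547), so that both passed. Without replicate 3 of mock-treated L12, that in L07 passed as well (adjusted p = 0.00821), and without replicate 3 of ABA-treated L12, the rise in L12 missed the threshold (adjusted p = 0.0118). With all libraries, DESeq2 (adjusted p = 0.00043) and limma with voom (adjusted p = 0.00347) called RD29B in L07.

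RD29A, its neighbour, is used as a reporter of both the ABA and the cold pathway. It had 958, 723 and 564 CPM in ABA-treated L07, against 394, 186 and 170 CPM in mock-treated L07. Its levels were 1929, 1446 and 1187 CPM in ABA-treated L12, against 200, 392 and 175 CPM in mock-treated L12. All treated libraries lay above all mock libraries of their leaf, and mock-treated L12 replicate 2 was again the highest of its group. RD29A rose in L12 by 2.56 ± 0.34 on the log2 scale (5.89-fold, adjusted p = 0.00159, edgeR), and no single library that was left out ended this call. In L07 it was higher in 3 of 3 replicates, with a log2 fold change of 1.62 ± 0.33 (3.07-fold) and an adjusted p of 0.0128. It passed there without mock-treated L12 replicate 1 (adjusted p = 0.00798) or replicate 2 (adjusted p = 0.00291), and after correction for exon length and GC (adjusted p = 0.00774). With all libraries, DESeq2 (adjusted p = 4.4e-05) and limma with voom (adjusted p = 0.00812) called RD29A in L07.

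LEA7 encodes a LEA protein that protects proteins and membranes in drying cells. In ABA-treated L12 it had 232, 211 and 230 CPM, against 0.302, 6.72 and 0.439 CPM in mock-treated L12. The 3 treated libraries lay within a narrow range, while the mock libraries held 7, 166 and 6 counts. LEA7 rose in L12 by 7.10 ± 1.31 on the log2 scale (137-fold, adjusted p = 0.0071, edgeR). In ABA-treated L07 it had 76.0, 244 and 38.6 CPM, against 5.44, 4.95 and 46.5 CPM in mock-treated L07, and these groups overlapped. In replicate 3 the treated L07 library was below the mock one, by 0.27 on the log2 scale, whereas replicates 1 and 2 differed by 3.78 and 5.59 in the other direction. The log2 fold change in L07 was 2.46 ± 1.16 (adjusted p = 0.19), and lay between 1.45 without mock-treated L07 replicate 2 (adjusted p = 0.447) and 4.37 without mock-treated L07 replicate 3 (adjusted p = 0.0469) when single libraries were left out. The rise in L12 was 9.24 without mock-treated L12 replicate 2 (adjusted p = 0.00251), and it missed the threshold without replicate 1 or 3 of mock-treated L12, without any of the 3 ABA-treated L12 libraries, and without ABA-treated L07 replicate 1 (adjusted p between 0.0112 and 0.0342).

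KIN1, a small cold- and ABA-induced protein, was the gene whose rise passed the test in both leaves. RD29A and RD29B were also higher with ABA in both leaves without overlap, but missed the threshold in L07. KIN1 had 862, 1181 and 1597 CPM in ABA-treated L07, against 65.5, 256 and 251 CPM in mock-treated L07. In the younger leaf it had 762, 563 and 774 CPM in ABA-treated L12, against 39.4, 76.5 and 174 CPM in mock-treated L12. No treated library overlapped a mock library of the same leaf. KIN1 rose by 2.78 ± 0.45 on the log2 scale in L07 (6.84-fold, adjusted p = 0.0051, edgeR) and by 3.15 ± 0.46 in L12 (8.88-fold, adjusted p = 0.00241, edgeR). The call in L07 was lost without any of the 3 ABA-treated L07 libraries or without replicate 1 or 3 of mock-treated L07 (adjusted p between 0.0152 and 0.038), and the call in L12 without replicate 1 of mock-treated L12 (adjusted p = 0.0176). Without ABA-treated L12 replicate 1, the log2 fold change in L12 was 2.55 (adjusted p = 0.00647), and after correction for exon length and GC that in L07 was 3.40 (adjusted p = 0.00162).

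COR15B was the gene that fell. It had 147, 105 and 383 CPM in ABA-treated L07, against 1007, 1276 and 1331 CPM in mock-treated L07. In ABA-treated L12 it had 128, 109 and 246 CPM, against 568, 342 and 935 CPM in mock-treated L12. Within each leaf, every treated library lay below every mock library. COR15B fell by 2.76 ± 0.33 on the log2 scale in L07 (6.77-fold lower, adjusted p = 0.00135, edgeR) and by 1.92 ± 0.31 in L12 (3.79-fold lower, adjusted p = 0.00397, edgeR). The call in L07 was lost without ABA-treated L07 replicate 1 (adjusted p = 0.0116), and that in L12 without any of the 3 ABA-treated L12 libraries or without replicate 1 or 3 of mock-treated L12 (adjusted p between 0.0161 and 0.0243). With scaling by library size only, under which the all-gene median stood at 0.49 in L07 and 0.42 in L12, the value in L12 was -1.52 (adjusted p = 0.0117).

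COR15A, which encodes the close relative of COR15B, had 3362, 3767 and 15590 CPM in ABA-treated L07, against 3077, 3994 and 5932 CPM in mock-treated L07. Levels in the younger leaf were 2427, 1984 and 4271 CPM in ABA-treated L12, against 1151, 776 and 2766 CPM in mock-treated L12. Treated and mock libraries overlapped in both leaves, and replicate 3 was the highest library of each group. Within replicates, the treated library was above the mock one in 2 of 3 in L07 and in 3 of 3 in L12. The log2 fold changes were 0.49 ± 0.32 in L07 (adjusted p = 0.336) and 1.02 ± 0.32 in L12 (adjusted p = 0.0562, edgeR). With scaling by library size only, COR15A passed in L12 (log2 fold change 1.39, adjusted p = 0.00899).

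KIN2, also known as COR6.6, had 4264, 5179 and 16600 CPM in ABA-treated L07, against 5276, 8254 and 12380 CPM in mock-treated L07. In ABA-treated L12 it had 2285, 2175 and 3337 CPM, against 2023, 1402 and 4979 CPM in mock-treated L12. The log2 fold changes were -0.18 ± 0.32 in L07 (adjusted p = 0.728) and 0.08 ± 0.32 in L12 (adjusted p = 0.874, edgeR). Both signs turned under other settings, for example to 0.28 in L07 with scaling by library size only.

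LEA14, an atypical LEA protein that is folded and less hydrophilic than the others, had 610, 872 and 1709 CPM in ABA-treated L07, against 640, 655 and 1107 CPM in mock-treated L07. In L12 the levels were 348, 232 and 471 CPM in ABA-treated libraries, against 139, 93.0 and 513 CPM in mock-treated L12. The groups overlapped in both leaves, and in L12 the treated library was above the mock one in 2 of 3 replicates. The log2 fold changes were 0.33 ± 0.34 in L07 (adjusted p = 0.542) and 0.79 ± 0.34 in L12 (adjusted p = 0.134, edgeR). With the 4 replicate 3 libraries left out, that in L12 was 1.39 (adjusted p = 0.0856).

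The calls of an ABA response among the 8 genes were lost without the replicate block and without replicate 1 or replicate 3. Without the replicate block, 0 of the 8 genes passed in either leaf, and 50 of all genes in L07 and 139 in L12. The adjusted p of the called genes then lay between 0.0106 and 0.0649 in the 2 leaves, with each direction unchanged. With the 4 replicate 3 libraries left out, 0 of all genes passed in either leaf, and with those of replicate 1 left out none of the 8 did.

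**Figure D2:**
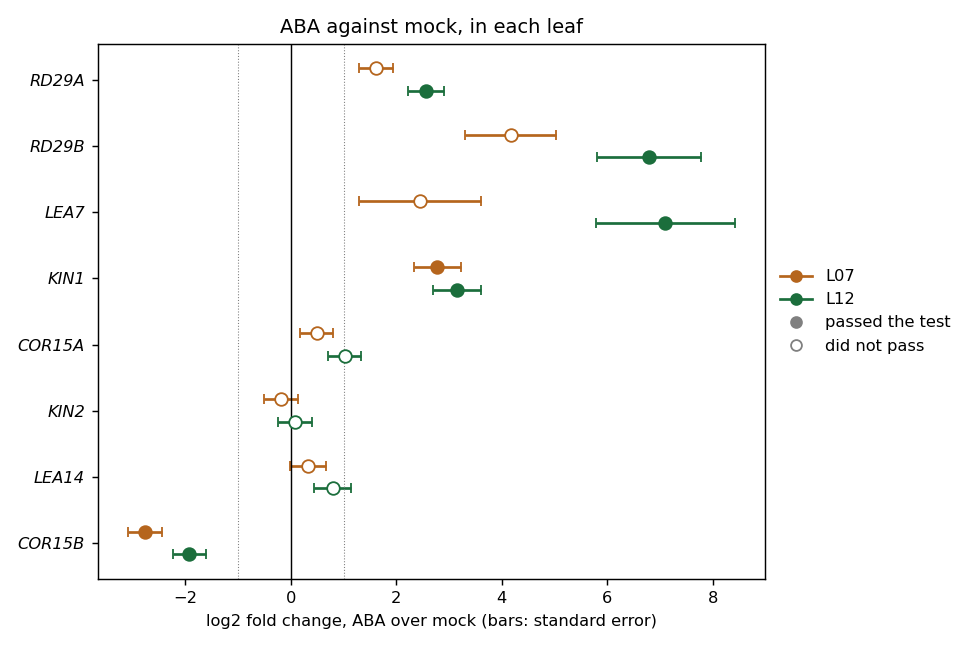
Log2 fold change of ABA over mock with its standard error for each gene in L07 (brown) and L12 (green), filled where the gene passed the test and open where it did not, with dotted lines at the fold limits of 1 in each direction. RD29B and LEA7 have the widest error bars, and COR15B lies below 0 in both leaves.

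Some markers of leaf cell types moved with the treatment. The summed level of 6 guard cell markers was 16.2 to 20.6 CPM in ABA-treated L07, against 52.8 to 122 CPM in mock-treated L07, and 40.5 to 53.7 CPM in ABA-treated L12, against 92.0 to 107 CPM in mock-treated L12, with none of the 6 at 0. Most of that difference came from GC1 alone, which averaged 3.24 CPM in ABA-treated L07 and 66.4 CPM in mock-treated L07, and 12.0 CPM in ABA-treated L12 and 54.8 CPM in mock-treated L12. GC1 passed in L07 and was the single guard cell marker to pass in either leaf. KAT1, MYB60 and HT1 had log2 fold changes between -1.44 and -1.14 over the 2 leaves, FAMA had -0.04 in L07 and 0.02 in L12, and SLAC1 had 0.88 in L07 and 0.60 in L12. The 6 mesophyll markers summed to 30340 to 49680 CPM in ABA-treated L07, against 58380 to 120300 CPM in mock-treated L07, and to 33380 to 42280 CPM in ABA-treated L12, against 46560 to 97370 CPM in mock-treated L12. LHCB1.3 was the largest part of this sum, averaging 24670 CPM in ABA-treated L07 and 58100 CPM in mock-treated L07. All 6 had log2 fold changes below 0 in both leaves, but only 2 passed in L07 and 1 in L12, beside 2.00% and 3.08% of all genes tested that were lower. The 4 phloem companion cell markers overlapped between treatments in both leaves (391 to 613 CPM across the ABA-treated libraries, against 442 to 570 CPM across the mock-treated libraries). Their part in the responses of the 8 genes was not tested.

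Within a library, the ratio of 2 neighbouring genes does not depend on how libraries are scaled. COR15A made up 95.8%, 97.3% and 97.6% of the summed COR15A and COR15B counts in ABA-treated L07, against 75.4%, 75.8% and 81.7% in mock-treated L07. In ABA-treated L12 it made up 94.6% to 95% in the 3 libraries, against 67.0%, 69.4% and 74.7% in mock-treated L12. Each share rests on at least 27627 counts, and the 95% Wilson intervals reach at most 0.543 percentage points to either side, for counting error only. The log2 ratio of COR15A to COR15B was higher with ABA by 3.07 on average within leaves, with no overlap of treated and mock libraries (exact permutation test within leaves, two-sided p = 0.005, adjusted p = 0.0075 over 6 tests). This p is the smallest that the 400 arrangements can give.

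KIN1 made up 16.8%, 18.6% and 8.78% of the summed KIN1 and KIN2 counts in ABA-treated L07, against 1.23%, 3.01% and 1.99% in mock-treated L07. In ABA-treated L12 its share was 25.0%, 20.6% and 18.8%, against 1.91%, 5.17% and 3.37% in mock-treated L12. KIN2 thus held most of the pair's counts in all 12 libraries. The log2 ratio of KIN1 to KIN2 was higher with ABA by 3.04, again without overlap (exact permutation test, two-sided p = 0.005, adjusted p = 0.0075).

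RD29A made up 91.0%, 80.5% and 90.2% of the summed RD29A and RD29B counts in ABA-treated L07, against 99.2%, 96.9% and 96.0% in mock-treated L07. In ABA-treated L12 it made up 86.0%, 84.4% and 84.6%, against 99.8%, 97.1% and 99.8% in mock-treated L12. The log2 ratio was lower with ABA by 3.83 on average, without overlap, as RD29B gained relative to RD29A (exact permutation test, log2 difference -3.83, two-sided p = 0.005, adjusted p = 0.0075). The log2 ratio of RD29A to RD29B averaged 2.50 ± 0.10 (SD, n = 3) in ABA-treated L12 and 7.52 ± 2.13 (SD, n = 3) in mock-treated L12.

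Between the leaves, at a threshold of 0.05 on the adjusted p, the log2 ratio of COR15A to COR15B was higher in L07 than in L12 by 0.69 within treatments (exact permutation test, two-sided p = 0.005, adjusted p = 0.0075). The differences for KIN1 to KIN2 (-0.74, p = 0.05, adjusted p = 0.06) and for RD29A to RD29B (-0.83, p = 0.32, adjusted p = 0.32) did not pass in the same exact permutation test, which ignores the replicate number. Paired by replicate number, in an exact sign-flip test added after seeing the data, the ratio of KIN1 to KIN2 was lower in L07 than in L12 in 6 of 6 pairs (differences between -1.27 and -0.18) and passed (two-sided p = 0.0312, the smallest that 64 arrangements can give, adjusted p = 0.0375). The other 5 calls on these ratios were the same when paired, with RD29A to RD29B between the leaves at an adjusted p of 0.406 by the exact test and the rest at 0.0375.

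**Figure D3:**
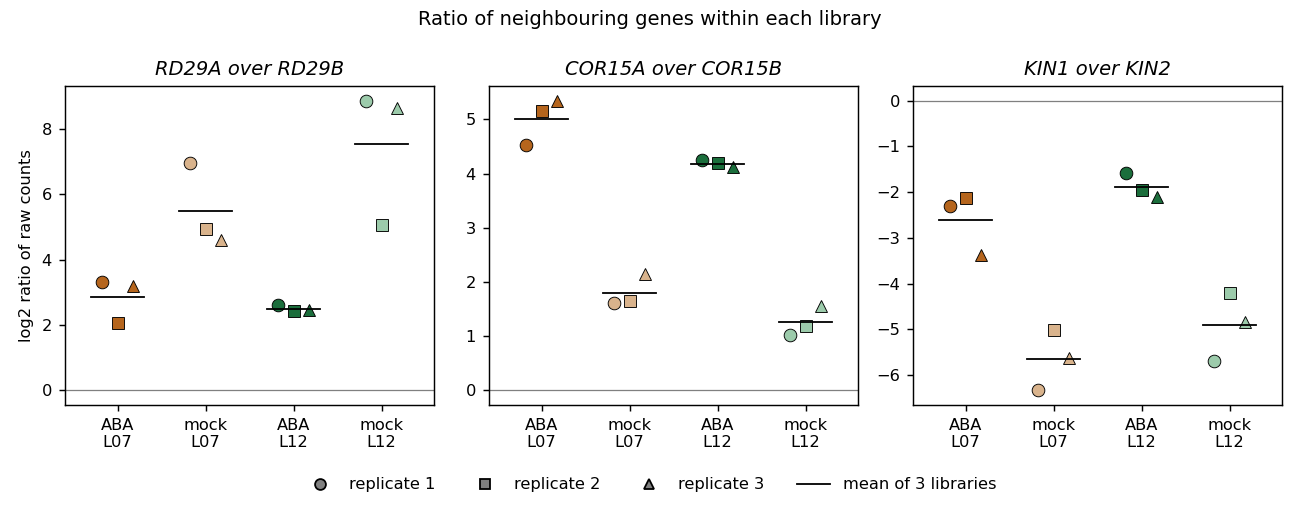
Log2 ratio of the raw counts of the first to the second gene of each tandem pair in each library, with ABA-treated and mock-treated L07 and then L12, the symbol giving the replicate and the line the mean of 3. The ABA-treated libraries lie above the mock-treated ones for COR15A over COR15B and KIN1 over KIN2, and below them for RD29A over RD29B.

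The comparison of leaves asks whether the genes differ with leaf age in the absence of ABA. In mock-treated leaves, COR15A, KIN2 and LEA14 were higher in L07 than in L12, 3 of the 8 genes beside 8.10% of all genes tested. LEA14 had 640, 655 and 1107 CPM in mock-treated L07, against 139, 93.0 and 513 CPM in mock-treated L12, a log2 fold change of 1.98 ± 0.35 (3.95-fold, adjusted p = 0.00345, edgeR). KIN2 was higher by 1.75 ± 0.33 on the log2 scale (3.36-fold, adjusted p = 0.00392) and COR15A by 1.65 ± 0.33 (3.14-fold, adjusted p = 0.00484). For each of the 3 genes all mock-treated L07 libraries lay above all mock-treated L12 libraries. COR15B differed by 1.13 ± 0.31 (adjusted p = 0.0167), KIN1 by 1.04 ± 0.42 (adjusted p = 0.0702) and LEA7 by 3.38 ± 1.25 (adjusted p = 0.0514), none of which passed. KIN1 stood at 0.15 after correction for exon length and GC (adjusted p = 0.791), and LEA7 between 1.46 without replicate 3 of mock-treated L07 (adjusted p = 0.243) and 5.34 without replicate 2 of mock-treated L12 (adjusted p = 0.0214). RD29A had a log2 fold change of -0.09 ± 0.32 (adjusted p = 0.841), whose sign turned to 0.50 after correction for exon length and GC.

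These age differences were sensitive to the libraries and to transcript length. After a spline correction of each library for exon length and GC, LEA14 passed, COR15A had a log2 fold change of 1.24 (adjusted p = 0.0158) and KIN2 of 0.99 (adjusted p = 0.00927), just inside the fold limit of 1. Without the replicate block none passed (adjusted p between 0.072 and 0.117). The call of COR15A was lost without any single one of the 6 mock-treated libraries (adjusted p between 0.0104 and 0.0242), and those of KIN2 and LEA14 without any of these 6 other than replicate 3 of mock-treated L12 (adjusted p between 0.0101 and 0.0179). RD29B, at 1.10 ± 0.87 (adjusted p = 0.322) with all libraries, was at 3.45 (adjusted p = 0.00637) without replicate 2 of mock-treated L12.

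In ABA-treated leaves, 0 of the 8 genes passed between L07 and L12, beside 6.81% of all genes tested, and 4 of the 8 were at an adjusted p below 0.05. LEA14 had 610, 872 and 1709 CPM in ABA-treated L07, against 348, 232 and 471 CPM in ABA-treated L12, a log2 fold change of 1.52 ± 0.35 (adjusted p = 0.0115, edgeR). KIN2 (1.49 ± 0.32, adjusted p = 0.0103) and COR15A (1.12 ± 0.32, adjusted p = 0.0234) were of the same sign. After correction for exon length and GC, KIN2 stood at 0.77 (adjusted p = 0.0336). RD29A had the opposite sign, at -1.03 ± 0.32 (adjusted p = 0.0309), and in each of the 3 replicates it was lower in L07 than in L12 by about as much (log2 differences between -1.07 and -1.0). DESeq2 called all 4 of these genes, and limma with voom called KIN2 and LEA14. Without replicate 2 of mock-treated L12, edgeR called RD29A, KIN2 and LEA14 (adjusted p between 0.00403 and 0.00778). It called KIN2 without replicate 2 of mock-treated L07 (adjusted p = 0.00847), and KIN2 (adjusted p = 0.00997) and LEA14 (adjusted p = 0.00609) without replicate 3 of mock-treated L12.

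**Figure D4:**
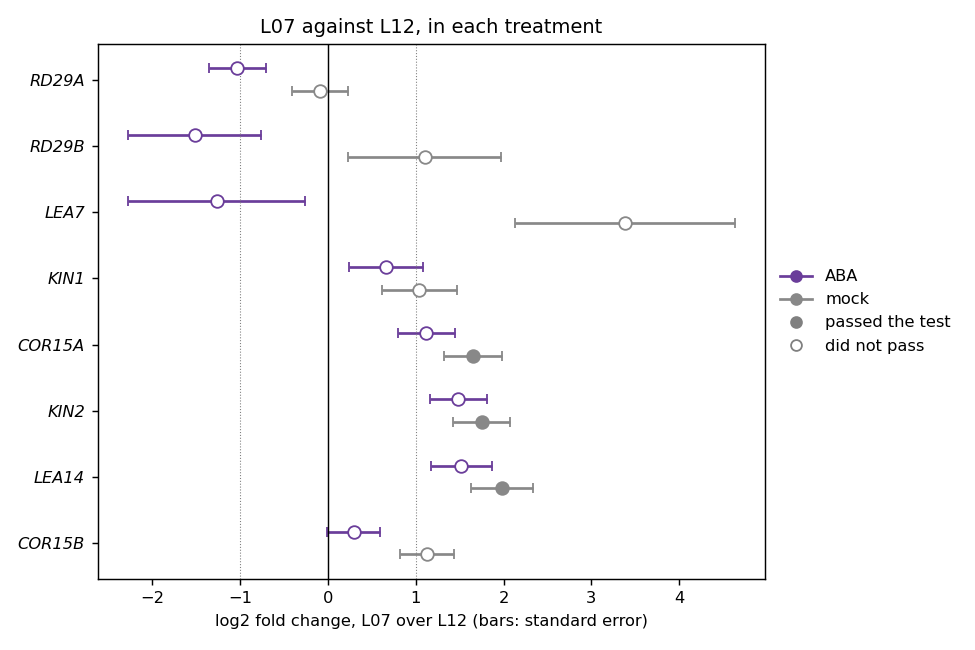
Log2 fold change of L07 over L12 with its standard error for each gene in ABA-treated leaves (purple) and mock-treated leaves (grey), filled where the gene passed the test and open where it did not. COR15A, KIN2 and LEA14 lie to the right of 0 in both treatments, whereas RD29A, RD29B and LEA7 lie to the left of 0 in ABA-treated leaves.

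The difference of the ABA responses, L07 minus L12, was negative for each of the 8 genes, although the signs of KIN1 and KIN2 turned when single libraries were left out, and 0 of the 8 passed, as did 0% of all genes tested. At an unadjusted p below 0.05 there were 1358 genes among all tested, and DESeq2 called 35 and limma with voom 0. The largest differences among the 8 genes were those of LEA7 (-4.64 ± 1.7, adjusted p = 0.593) and RD29B (-2.62 ± 1.18, adjusted p = 0.67), both by edgeR. With single libraries left out, LEA7 lay between -6.30 (without mock-treated L12 replicate 2) and -2.97 (without mock-treated L07 replicate 3), and RD29B between -4.81 (without mock-treated L12 replicate 2) and -1.90 (without mock-treated L12 replicate 3), none of which passed. RD29A had -0.94 ± 0.46 (adjusted p = 0.7), and COR15B, whose response was negative in both leaves, -0.84 ± 0.43 (adjusted p = 0.723). The other 4 genes lay between -0.53 and -0.26, with SEs between 0.45 and 0.59. A rise that passed in L12 and not in L07, as in RD29A, RD29B and LEA7, was therefore not shown to differ between the leaves. DESeq2 called none of the 8 either.

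The order of the levels within a group was set on TPM, a unit in which counts are divided by the annotated exon length and scaled to the same total in every library, which allows genes of unequal length to be set side by side. KIN2 was the highest of the 8 in all 4 groups, at 14770 ± 7479 TPM in ABA-treated L07 and 10810 ± 1681 TPM in mock-treated L07, and at 6701 ± 1532 TPM in ABA-treated L12 and 4642 ± 1663 TPM in mock-treated L12 (SD, n = 3). By the mean of each group, KIN2 ranked 3rd, 7th, 9th and 29th among 31912 genes in these groups. COR15A was second throughout, at 5962 ± 3837 TPM in ABA-treated L07 and 2609 ± 175 TPM in mock-treated L07, and at 3521 ± 1404 TPM in ABA-treated L12 and 1228 ± 435 TPM in mock-treated L12. The ranges of KIN2 and COR15A overlapped only in ABA-treated L07.

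Below these, the order changed with treatment. In mock-treated leaves COR15B came next (751 ± 104 TPM in L07 and 502 ± 104 TPM in L12), followed by LEA14, KIN1, RD29A, LEA7 and RD29B. In ABA-treated leaves KIN1 came next (2041 ± 247 TPM in L07 and 1629 ± 214 TPM in L12), with ranges apart from both of its neighbours in the order. COR15B was then 7th in L07, at 174 ± 75.1 TPM, and 8th in L12, at 196 ± 86.6 TPM. In ABA-treated L07 the neighbours RD29A, LEA7, COR15B and RD29B overlapped in range, each with the next. In ABA-treated L12 the ranges of LEA14 and LEA7, and of RD29B and COR15B, overlapped. In the mock groups KIN1 and RD29A overlapped in both leaves, and LEA14 with KIN1 and LEA7 with RD29B in L12. RD29B and LEA7 were the lowest in mock-treated leaves, with RD29B at 2.37 ± 0.46 TPM in L07 and 3.35 ± 5.38 TPM in L12. These values depend on the exon lengths of the RefSeq annotation, which for COR15A join 4 transcript models. They were not corrected for the length trend of the libraries.

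Of the regulators listed for the 2 elements, 2 passed with ABA, both of them higher in L12. This stands beside 1.47% of all genes tested that were higher in L12. Of the 8 ABRE-binding and related factors, 7 were tested. ABI5, the bZIP factor of germination and ABA responses, had 3.59 to 5.97 CPM in ABA-treated L12, against 1.17 to 1.38 CPM in mock-treated L12, and rose by 1.86 ± 0.35 on the log2 scale (adjusted p = 0.00814, edgeR). GBF3, a G-box binding bZIP factor, rose in L12 by 2.52 ± 0.50 (adjusted p = 0.00988) and had a log2 fold change of 1.49 ± 0.51 in L07 (adjusted p = 0.0834). In L12, ABF3 had 1.65 ± 0.34 (adjusted p = 0.0105), ABF1 1.41 ± 0.31 (adjusted p = 0.0158), ABF2 1.23 ± 0.37 (adjusted p = 0.049), ABF4 0.81 ± 0.30 (adjusted p = 0.0909) and AREB3 -0.04 ± 0.19 (adjusted p = 0.91). In L07 none of the 7 passed, with ABI5 at 0.76, ABF1 at 0.82, ABF2 at 0.83, ABF3 at 0.22, ABF4 at -0.15 and AREB3 at -0.38. The list's median log2 fold change was 0.76 in L07 and 1.41 in L12, beside 0.03 for all genes.

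None of the 8 factors listed for the DRE passed in either leaf. Of all genes tested, 0.935% were higher and 2.00% lower in L07, and 1.47% and 3.08% in L12. DREB2C (1.69 ± 0.44, adjusted p = 0.0303), DREB2A (1.34 ± 0.38, adjusted p = 0.0393) and DREB2B (1.70 ± 0.52, adjusted p = 0.0524), which act in drought and heat, were above 0 in L12. The cold-induced CBF1 (-1.09 ± 0.79, adjusted p = 0.337) and CBF2 (-0.89 ± 0.60, adjusted p = 0.305) were below 0 there and CBF3 above it (1.29 ± 0.93, adjusted p = 0.339). CBF4 was at -1.46 ± 0.86 (adjusted p = 0.244), and ICE1, a bHLH factor that acts on CBF genes and does not itself bind the DRE, was at 0.08 ± 0.20 (adjusted p = 0.796). In L07 the 8 values lay between -1.61 for CBF1 and 0.49 for DREB2C. CBF2 averaged 41.9 ± 33.9 CPM in ABA-treated L07 and 171 ± 224 CPM in mock-treated L07 (SD, n = 3), so that the SD was above the mean in mock-treated L07 and below it in ABA-treated L07.

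Other genes of drying and cold moved in both directions. Of 7 dehydrins tested of 10, RAB18 and LTI30 rose in both leaves and XERO1 in L12. Of all genes tested, 0.935% were higher in L07 and 1.47% in L12. RAB18 had 1388 to 2835 CPM in ABA-treated L07, against 95.2 to 316 CPM in mock-treated L07, a log2 fold change of 3.36 ± 0.35 (adjusted p = 0.000863, edgeR), and rose in L12 by 4.68 ± 0.37 (adjusted p = 0.000214). LTI30 rose by 2.21 ± 0.32 in L07 (adjusted p = 0.00303) and by 2.93 ± 0.33 in L12 (adjusted p = 0.00083). XERO1 was near the floor of detection, at 1.14 ± 0.25 CPM in ABA-treated L12 and 0.0488 ± 0.0846 CPM in mock-treated L12 (2 counts in the 3 libraries together). The median of the 7 dehydrins was 0.65 in L07 and 0.54 in L12.

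Of 36 other LEA genes, 17 were tested, and 1 passed in L07 and 3 in L12, all of them higher, beside 0.935% and 1.47% of all genes tested. DI21, a drought-induced LEA gene, rose by 3.22 ± 0.37 in L07 (adjusted p = 0.00129, edgeR) and by 3.84 ± 0.39 in L12 (adjusted p = 0.000457). LEA4-5 (3.93 ± 0.67, adjusted p = 0.00503) and AT5G44310 (5.08 ± 0.79, adjusted p = 0.00313) rose in L12. The list's median was 0.41 in L07 and 3.34 in L12. Of the 17 genes, 6 held at most 6 counts in the 3 mock-treated L12 libraries together and passed the filter on low counts through other groups, which can raise the median in L12, so nothing is read from it. AT5G44310 is 1 of these 6, with 171 counts in ABA-treated L12 and 5 in mock-treated L12.

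Of 15 other cold- and ABA-regulated genes, 1 passed in L07, lower, and 4 in L12, of which 3 were higher. Over all genes tested, 2.00% were lower in L07, and 1.47% were higher and 3.08% lower in L12. GOLS3, a galactinol synthase of the cold response, had 2.29 to 16.1 CPM in ABA-treated L07, against 8.92 to 189 CPM in mock-treated L07, and fell by 3.04 ± 0.46 on the log2 scale (adjusted p = 0.00394, edgeR). It also fell in L12, by 2.67 ± 0.49 (adjusted p = 0.0071). The lipid transfer protein genes LTP4 (6.48 ± 0.95, adjusted p = 0.00254) and LTP3 (4.12 ± 0.46, adjusted p = 0.000795) and the alcohol dehydrogenase ADH1 (3.75 ± 0.64, adjusted p = 0.00514) rose in L12. The median of this list was 0.20 in L07 and 0.44 in L12.

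**Figure D5:**
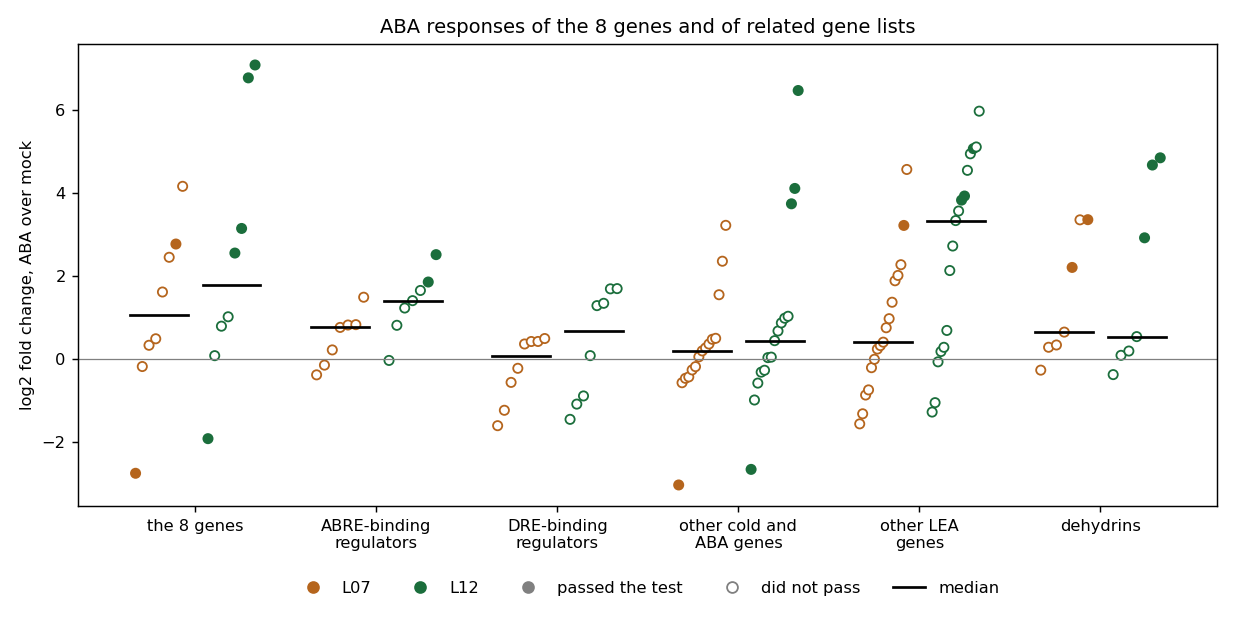
Log2 fold change of ABA over mock in L07 (brown) and L12 (green) for the 8 genes and for the tested genes of 5 related lists, 1 point per gene, filled where the gene passed the test, with the median as a line. The median of the other LEA genes in L12 rests partly on genes that passed the filter through other groups, and COR15B and GOLS3 are the filled points below 0 in each leaf.

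Between mock-treated L07 and L12, calls were more frequent over all genes (8.10% higher in L07) than with ABA (0.935% higher in L07 and 1.47% in L12), and the counts of the lists stand beside that share. In mock-treated leaves, 8 of 15 other cold- and ABA-regulated genes, 4 of 17 other LEA genes and 3 of 7 dehydrins were higher in L07 than in L12 and none lower, and none of the regulators passed. The 4 largest changes of the first list were those of LTP4 (6.54 ± 0.92, adjusted p = 0.00171), LTP3 (4.88 ± 0.47, adjusted p = 0.000489), GOLS3 (2.56 ± 0.44, adjusted p = 0.00307) and RD22 (2.07 ± 0.30, adjusted p = 0.0018), from edgeR's test. The LEA genes were AT3G02480 (5.68 ± 1.3), AtLEA4-1 (2.25 ± 0.47), LEA3 (1.70 ± 0.36) and DI21 (1.64 ± 0.36), and the dehydrins RAB18 (1.78 ± 0.33), LTI30 (1.74 ± 0.31) and ERD14 (1.20 ± 0.29), with adjusted p between 0.00355 and 0.0098 over these 7. AT3G02480 ranged from 5.06 to 152.5 CPM in mock-treated L07, against 0.22 to 1.82 CPM in mock-treated L12. AtLEA4-1 was near the floor of detection, with 49 counts in all mock-treated L07 libraries together and 16 in those of mock-treated L12. In ABA-treated leaves, LTP3 (2.31 ± 0.42, adjusted p = 0.00704) and LEA3 (2.98 ± 0.37, adjusted p = 0.00233) alone of the 5 lists passed, both higher in L07. Of all genes tested, 6.81% passed between ABA-treated leaves, counting both directions. For the difference of the responses 0 genes of the lists passed, beside 0% of all genes tested.

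Across the 12 libraries, the log2 levels of the 8 genes fell into patterns that are given as a description, since the points share 4 groups and each library's depth and length trend. RD29B and LEA7 were alike (Pearson r = 0.961), as were COR15A and LEA14 (r = 0.949) and KIN2 and LEA14 (r = 0.93). Within the tandem pairs, r was 0.903 for RD29A and RD29B, 0.137 for COR15A and COR15B and 0.357 for KIN1 and KIN2. COR15B ran against RD29A (r = -0.886). Of all other tested genes, those most like RD29A were LysoPL2 (r = 0.973) and SUS3 (r = 0.97), those most like RD29B were DAA1 (r = 0.967) and HSFA6A (r = 0.965), and those most like LEA7 were HIS1-3 (r = 0.965) and RD29B. KIN1 was most like the dehydrins XERO1 (r = 0.979) and RAB18 (r = 0.969). COR15B was most like MES18 (r = 0.972) and HB2 (r = 0.971). For COR15A these were ELI3-1 (r = 0.983) and AT5G04440 (r = 0.966), for KIN2 CCP2 (r = 0.991) and AT5G42850 (r = 0.99), and for LEA14 AT1G18720 (r = 0.982) and ELI3-1 (r = 0.978).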

How the data were processed

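Total RNA of 12 leaf samples was enriched for polyadenylated RNA and made into strand-specific libraries. Per the submitters' processing notes, CASAVA 1.8.2, cutadapt 1.5, TopHat2 2.0.10 and HTSeq 0.6.1 were used with TAIR10. The authors deposited whole-number counts per gene with no normalization. The counting mode and strand option were not given in the sources used here, and the table counts multiply aligned reads in a summary line of its own, outside the genes, which lowers counts of close paralogs. The 5 summary lines (5.97% to 10.3% of the reads counted in a library) were left out. No library was a copy of another, since chi-square per degree of freedom between libraries of a group was at least 29.6.

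The 18291 genes averaging 10 or more counts were kept. After TMM scaling, 1 edgeR quasi-likelihood model over the 12 libraries held the 4 groups and the replicate number (edgeR 4.0.16, R 4.3.3). The replicate number is a term of the study's model. In a check of this pairing, deviations from group means of same-numbered libraries had a median correlation of 0.361 (18 pairs, 16 over 0.1), against -0.217 for 36 differently numbered pairs. Deviations cancel out within a group, so these values are not independent and the second adds no support to the first. The prior count was 0.125 in fold changes and 2 in log2 CPM. Ratios of neighbouring genes were compared by an exact permutation test within leaves or treatments, which was added after the other tests were chosen. Replicates come from repeats of the experiment. With the replicate number as a block, edgeR's p-values measure the spread left after differences common to same-numbered libraries are taken out. Alternatives were DESeq2 1.42.0, limma 3.58.1 with voom, no replicate block, other scaling, filters, thresholds and dispersion, only the groups compared, a length and GC spline of 5 degrees of freedom, and leaving out replicates or libraries. The fit was also run on simulated counts that held no replicate effect and no length trend, so that run cannot show how it behaves under either.

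The 8 genes and the lists were chosen with earlier results of these data known. Named are the 8 genes, the tested regulators, of each list the genes that passed (or the 4 of largest change), and for each of the 8 genes the 2 genes of highest correlation. Symbols, coordinates, lengths and sequences come from RefSeq, TAIR10.1. RefSeq lists RD29A as LTI78 and RD29B as LTI65. In all, 31912 of 32678 genes matched it.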

Additional observations from a re-analysis of the deposited data

How the results depend on the processing

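No result that passed the test changed direction under any alternative run. Of the 8 genes, 2 passed with ABA in L07, 5 in L12, 0 and 3 between the leaves with ABA and mock, and 0 for the difference of responses, which stayed at 0 throughout. In L07 the count was 4 with DESeq2, limma with voom, no filter on low counts, or an adjusted p below 0.05 with no fold limit, and 0 with no replicate block or only the groups compared. In L12 it was 0 with no replicate block. Between the leaves with ABA it was 4 with DESeq2, only the groups compared or the adjusted p of 0.05, and 2 with voom or no filter. Between mock-treated leaves it was 5 with DESeq2, 0 with no replicate block or only the groups compared, and 1 with the length and GC spline. Leaving out replicates or libraries gave 0 to 4 in L07, 0 to 5 in L12, 0 to 3 with ABA and 0 to 3 with mock. The log2 ratio of KIN1 to KIN2 between the leaves (-0.736) passed when paired by the replicate block and not otherwise. The causes were not tested.

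Signs turned for values that did not pass. The ABA response of KIN2 in L07 was 0.008 with no replicate block, 0.278 with library size only, 0.293 with the spline, and -0.502 to 0.105 with libraries left out. In L12 it was -0.108 with no replicate block and -0.167 to 0.439 with libraries left out. For the difference of responses, KIN2 was 0.116 with no replicate block and -0.941 to 0.257 with libraries left out, and KIN1 -0.897 to 0.315. Between ABA-treated leaves, COR15B was -0.002 with library size only, -0.013 with the spline and -0.013 to 0.496 with libraries left out, and KIN1 was -0.08 with the spline. Between mock-treated leaves, RD29A was 0.503 with the spline and -0.572 to 0.462 with libraries left out. Mock-treated L12 replicates 1 and 3 held 6 to 10 counts of RD29B and LEA7, so depth limits how closely those folds are known.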
